A study of Mus musculus with 2 samples.

Results

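The genes described here encode 9 transcription factors of the epidermal lineage, Trp63, Grhl1, Grhl2, Grhl3, Ovol1, Zfp750, Tfap2a, Tfap2c and Prdm1, out of 22383 genes in the table. They were chosen by gene symbol, and each symbol matched 1 gene. The study sequenced 2 sublines of iHFSC2, which is a mouse hair follicle stem cell line that was immortalized, with 1 library each. The shcircSmad5 subline was infected with a lentivirus that carries a hairpin against circSmad5, a circular RNA of the Smad5 gene. The other subline was infected with the empty vector, so it carries no hairpin at all. Both were put under puromycin from day 4 after infection and were stable lines at day 15. Whether a line grew from 1 cell or from many is not given in the sources used here. With 1 library a group there is no replicate check, and what the hairpin did cannot be told apart from what separate infection and selection did to each subline.

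p63, the product of Trp63, is the master regulator of stratified epithelia and keeps basal keratinocytes able to renew. It works with the AP-2 proteins, encoded by Tfap2a and Tfap2c, at the regulatory regions of keratinocyte genes. The grainyhead-like proteins, encoded by Grhl1, Grhl2 and Grhl3, maintain epithelial junctions and build the skin barrier. OVOL1, ZNF750 (Zfp750 in the mouse) and BLIMP1 (Prdm1) act as cells leave the basal layer: OVOL1 restrains proliferation of progenitors, ZNF750 is induced by p63 and drives terminal differentiation in human epidermis, and BLIMP1 is a repressor that acts late in the mouse epidermis and in sebaceous gland progenitors.

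Zfp750 was 4.76-fold higher and Prdm1 2.28-fold higher in the shcircSmad5 library, while the other 7 genes differed from the empty vector library by at most 1.28-fold in either direction and were not called. All 9 genes were well measured, with 476 to 9449 counts in the shcircSmad5 library and 397 to 11857 in the empty vector library. In level per summed exon length, Zfp750 was the highest of the 9 genes in the shcircSmad5 library, just above Trp63, and ranked 7 of 9 in the empty vector library.

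The hairpin's target and the coding starts of Zfp750 and Trp63 are shown to say which transcripts the values can and cannot separate. The target joins the last 10 bases of a downstream Smad5 exon, in lower case, to the first 11 bases of an upstream exon, in capitals.
circSmad5 target: tccagcagagGACTTGCACTA
The exons lie on chromosome 13 of GRCm38, at 56728510 to 56728629 and at 56723429 to 56723996. The whole target, on either strand, was in 0 of the 41 transcript models of the 9 genes in GENCODE M21. It was also in 0 of the 6 models of Smad5, because it joins exons in reverse order. Partial matches were not searched, so this does not say whether the hairpin could act on the 9 genes. The first 60 coding bases of the single Zfp750 model, and of each kind of Trp63 model, are these, with the start codon in capitals.
Zfp750: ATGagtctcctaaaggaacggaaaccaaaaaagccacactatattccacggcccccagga
Trp63, downstream start: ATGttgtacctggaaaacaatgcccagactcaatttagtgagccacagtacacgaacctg
Trp63, upstream start: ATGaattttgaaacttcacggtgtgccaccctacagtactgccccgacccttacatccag
Of the 8 Trp63 models, 4 begin at the upstream start, near 25683763, and 4 at the downstream start, at 25801916. The upstream form carries the transactivation domain, and the downstream form, known as deltaNp63, is the usual one of basal keratinocytes. A count per gene adds these forms together, so the Trp63 values below do not say which form was present.

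The total gene count was 38382081 in the shcircSmad5 library and 39261010 in the empty vector library. Markers of keratinocytes were abundant in both libraries, while some defining markers of hair follicle stem cells were at or near 0. All of the 10 keratinocyte markers were measured and 0 passed the size rule defined below (median log2 ratio 0.02). Krt5 and Krt14, the keratins of the basal layer, had 224675 and 226645 counts in the shcircSmad5 library, against 206538 and 162982 in the empty vector library. Of 10 hair follicle stem cell markers in the table, 8 had at least 20 counts, and Krt15, the bulge keratin gene, was lower with 79 counts in shcircSmad5 cells and 253 in empty vector cells, while none was higher (median -0.63). Tbx1 had 945 counts in shcircSmad5 cells and 471 in empty vector cells, a log2 ratio of 0.97 (0.81 to 1.14), just under the 2-fold limit. Sox9 had 5301 counts in the shcircSmad5 library and 8829 in the empty vector library, but Lhx2 had 5 in the shcircSmad5 library and 4 in the empty vector library, and Cd34, a surface marker of bulge stem cells, was at 0 in both. Smad5 itself had 3413 counts in shcircSmad5 cells and 3109 in empty vector cells, a log2 ratio of 0.10, and a gene count does not separate its circular RNA from the linear one.

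Ratios below are shcircSmad5 over empty vector, from counts scaled by TMM, a method that equalizes the bulk of genes between libraries. The interval after each is the exact Clopper-Pearson 95% interval of the split of the gene's counts, and it covers counting error only. To be called higher or lower, a gene needed 20 or more counts in either library, a change of 2-fold or more, and an interval that left out 1. This is the size rule. Levels are compared between genes only in the deposited FPKM, the count divided by exon length and by the library's total. That length sums the exons of all models of a gene: 8391 bases over 8 models for Trp63, but 3232 over 1 model for Zfp750. It was 8613 bases over 6 models for Grhl2 and 2789 over 1 model for Grhl3. A gene with many models can thus read lower than its transcripts would, and ranks and shares between genes carry this limit.

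Of the 9 genes, 2 were called higher and 0 lower. Across all 13596 genes with at least 20 counts, 8.43% were called higher and 6.24% lower, 14.7% in all, and among protein-coding genes 4.61% and 6.38%. The median log2 ratio of the 9 genes was 0.24, against -0.02 over all genes tested and -0.05 over the protein-coding ones. The counting interval lay above 0 for 6 genes and below 0 for 3. At these counts it left out 0 even for Tfap2a, at a log2 ratio of 0.12 (0.06 to 0.18). The same share over all genes was not counted, so this does not set the 9 genes apart. Prdm1, at 1.19, was the called gene nearest the 2-fold limit, and Trp63, at -0.36, with Grhl1, at 0.35, were the uncalled genes nearest it on either side.

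**Figure D1:**
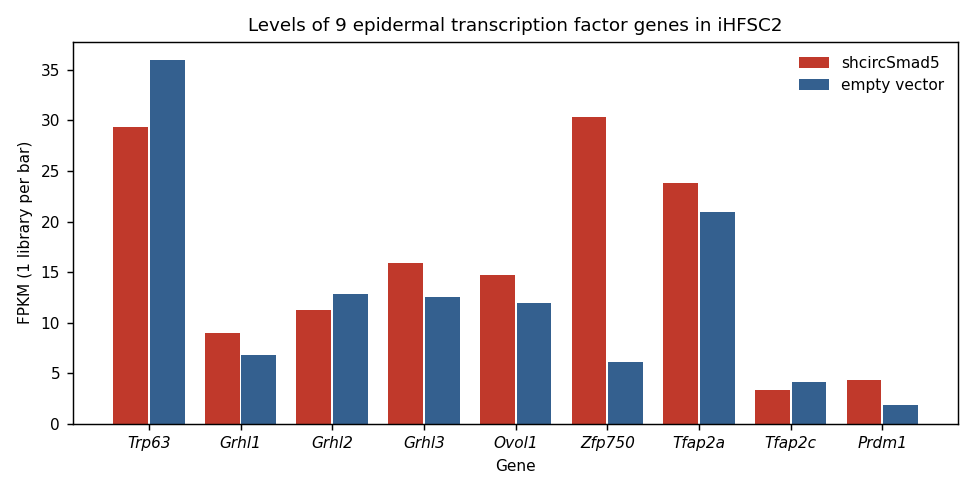
Level of each of the 9 genes in FPKM, with 1 bar per library, shcircSmad5 on the left of each pair and empty vector on the right. Zfp750 stands at 30.4 FPKM in the shcircSmad5 library and 6.11 in the empty vector library, and the other pairs differ far less.

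Zfp750 (ENSMUSG00000039238, GRCm38 chromosome 11, 121510978 to 121519333, minus strand) is a zinc finger gene needed for the late program of the epidermis. It had 3766 counts in the shcircSmad5 library and 775 in the empty vector library. Per length, that was 30.4 FPKM in shcircSmad5 cells and 6.11 FPKM in empty vector cells. The ratio was 4.76-fold higher (95% counting interval 4.40 to 5.15), a log2 ratio of 2.25. Among the 10308 protein-coding genes that reached 100 counts in either library, 34 had a higher ratio. Among protein-coding genes ordered by FPKM, Zfp750 stood at place 1568 in the shcircSmad5 library and at 6367 in the empty vector library.

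The whole Zfp750 gene lies inside Tbcd, a tubulin folding gene on the opposite strand, but shares 0 exonic bases with it. Tbcd had 5381 counts in the shcircSmad5 library and 4992 in the empty vector library, a log2 ratio of 0.08. The next measured protein-coding genes on either side, Fn3krp and B3gntl1, had log2 ratios of 0.56 and 0.97 and did not pass the rule. The median over the 1035 tested genes of chromosome 11 was 0.10. The ratio of Zfp750 was above those of all 3 of these genes, and both flanking genes were also above the chromosome's median.

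Prdm1 (ENSMUSG00000038151, chromosome 10, 44437177 to 44528501, minus strand) encodes BLIMP1. It had 925 counts in the shcircSmad5 library and 397 in the empty vector library. Its level was low in both, at 4.32 FPKM in shcircSmad5 cells and 1.81 FPKM in empty vector cells. The ratio was 2.28-fold higher (2.03 to 2.57), a log2 ratio of 1.19, with 181 of the 10308 genes above it. The flanking genes Atg5 and Prep had log2 ratios of -0.03 and -0.19. Prdm1 is also a gene of lymphocytes and plasma cells, so markers of blood cells were read beside it. Of 9 such markers 7 were in the table, with 19 counts in sum in the shcircSmad5 library and 58 in the empty vector library. The plasma cell gene Jchain had 3 counts in shcircSmad5 cells and 2 in empty vector cells. The B cell gene Cd79a had 5 counts in the shcircSmad5 library, against 12 in the empty vector library.

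Ovol1 (ENSMUSG00000024922, chromosome 19, 5549136 to 5560646, minus strand), the remaining factor of this differentiation group, did not pass the rule. It had 1976 counts in the shcircSmad5 library and 1641 in the empty vector library, which is 14.8 FPKM in shcircSmad5 cells and 12.0 FPKM in empty vector cells. Its log2 ratio was 0.24 (0.14 to 0.33), below the 2-fold limit. Of its exonic bases, 22.0% lie under exons of 2 noncoding or pseudogene models on the opposite strand, which had at most 16 counts each. Where counting ignored strand, reads of a gene and of such a partner cannot be told apart. Its paralog Ovol2, which opposes the mesenchymal program, had 172 counts in shcircSmad5 cells and 191 in empty vector cells, and Ovol3 had 10 in shcircSmad5 cells and 1 in empty vector cells, too few for the rule.

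**Figure D2:**
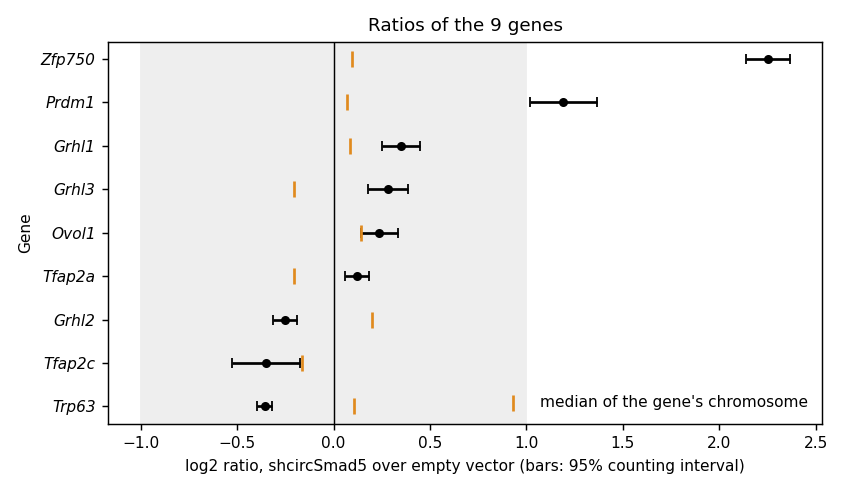
Log2 ratio of each gene, shcircSmad5 over empty vector, with its 95% counting interval as a bar; the grey band marks ratios under 2-fold and the orange tick the median of the tested genes of the same chromosome. Zfp750 and Prdm1 lie right of the band, at 2.25 and 1.19, and the other 7 genes lie between -0.36 and 0.35.

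None of the 3 regulators of basal identity passed the rule. Trp63 (ENSMUSG00000022510, chromosome 16, 25683763 to 25892102, plus strand) had 9449 counts in the shcircSmad5 library and 11857 in the empty vector library. Per length, that was 29.3 FPKM in shcircSmad5 cells and 36.0 FPKM in empty vector cells. Its log2 ratio was -0.36 (-0.40 to -0.32), which is 1.28-fold lower and did not pass the rule. The median of the tested genes of chromosome 16 was 0.11. The level of Zfp750 was 103% of that of Trp63 in the shcircSmad5 library and 17.0% in the empty vector library, both in FPKM.

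Tfap2a (ENSMUSG00000021359, chromosome 13, 40715302 to 40738376, minus strand), the main AP-2 gene of these cells, had 4474 counts in the shcircSmad5 library and 4024 in the empty vector library. Its log2 ratio was 0.12 (0.06 to 0.18). Tfap2c (ENSMUSG00000028640, chromosome 2, 172549593 to 172558622, plus strand), which encodes AP-2gamma, had 476 counts in shcircSmad5 cells and 594 in empty vector cells, a log2 ratio of -0.35 (-0.53 to -0.17). The 2 ratios lie on opposite sides of 1, both within 2-fold. In FPKM, Tfap2a took 87.6% of their sum in the shcircSmad5 library and 83.6% in the empty vector library. Of the Tfap2a exonic bases, 14.6% lie under exons of 3 antisense models on the opposite strand, with at most 15 counts each. Tfap2a also marks melanocytes and neural crest, and of 9 markers of these cells 3 were in the table: Mitf had 426 counts in the shcircSmad5 library and 829 in the empty vector library, Pmel had 30 in shcircSmad5 cells and 24 in empty vector cells, and Mlana had 2 in shcircSmad5 cells and 0 in empty vector cells.

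None of the 3 grainyhead-like genes passed the rule, and their ratios lay on both sides of 1. Grhl2 (ENSMUSG00000022286, chromosome 15, 37233036 to 37363569, plus strand), which keeps cells epithelial, had 3715 counts in the shcircSmad5 library and 4329 in the empty vector library, a log2 ratio of -0.25 (-0.31 to -0.19). Grhl1 (ENSMUSG00000020656, chromosome 12, 24572283 to 24617391, plus strand), a regulator of desmosomal cadherins, had 1914 counts in shcircSmad5 cells and 1471 in empty vector cells, a log2 ratio of 0.35 (0.25 to 0.45). Grhl3 (ENSMUSG00000037188, chromosome 4, 135541888 to 135573630, minus strand), which is needed for barrier formation, had 1707 counts in shcircSmad5 cells and 1377 in empty vector cells, a log2 ratio of 0.28 (0.18 to 0.38). The counting interval of Grhl2 lay below 0, and those of Grhl1 and Grhl3 lay above 0. Of the Grhl2 exonic bases, 1.96% lie under an antisense model on the opposite strand, Gm16136, with 165 counts in shcircSmad5 cells and 81 in empty vector cells.

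Read per length, Grhl3 was at 15.9 FPKM in the shcircSmad5 library and 12.6 FPKM in the empty vector library. Grhl2 was at 11.2 FPKM in shcircSmad5 cells and 12.8 FPKM in empty vector cells. In shcircSmad5 cells Grhl3 held 44.1% of the family's summed FPKM, Grhl2 31.1% and Grhl1 24.9%. In empty vector cells Grhl3 and Grhl2 were nearly level, with 39.1% and 39.8% of the sum, and Grhl1 held 21.0%. The sum itself was 36.2 FPKM in shcircSmad5 cells and 32.1 FPKM in empty vector cells.

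**Figure D3:**
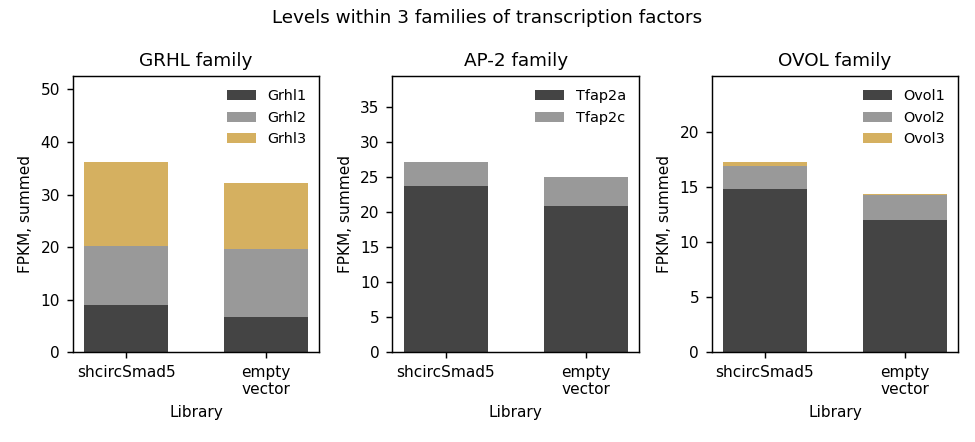
FPKM summed over the genes of the GRHL, AP-2 and OVOL families that are in the table, with the shcircSmad5 library on the left of each panel and the empty vector library on the right; shades mark the genes. The sums stay near each other, and the Grhl3 segment is larger than the Grhl2 segment in the shcircSmad5 library.

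The order of levels in FPKM in the shcircSmad5 library, from the top, was Zfp750, Trp63, Tfap2a, Grhl3, Ovol1, Grhl2, Grhl1, Prdm1 and Tfap2c. In the empty vector library it was Trp63, Tfap2a, Grhl2, Grhl3, Ovol1, Grhl1, Zfp750, Tfap2c and Prdm1. The spread between cultures was not measured, so no pair of neighbours in either order can be said to differ beyond it; Zfp750 and Trp63, at 30.4 and 29.3 FPKM, and Grhl2 and Grhl3 in empty vector cells, at 12.8 and 12.6, are the closest examples. Summed over the 9 genes, the level was 142 FPKM in the shcircSmad5 library and 113 in the empty vector library. Zfp750 made up 21.4% of that sum in shcircSmad5 cells and 5.40% in empty vector cells.

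**Figure D4:**
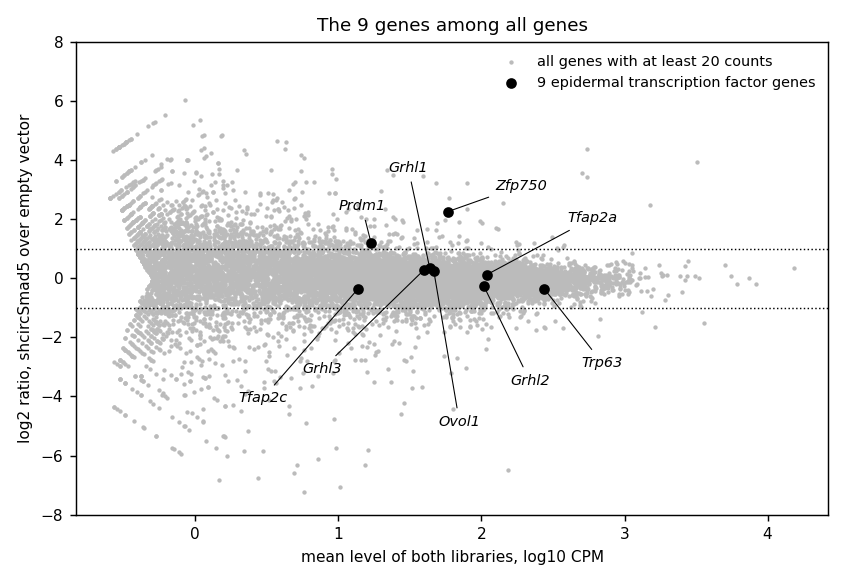
Log2 ratio, shcircSmad5 over empty vector, against the mean level of both libraries on a log10 CPM axis (CPM, each count relative to its library's scaled total), with all genes of at least 20 counts in grey, the 9 genes in black and the 2-fold limits dotted. Zfp750 lies above the bulk of genes of its level, Prdm1 just above the upper limit, and the other 7 within the grey body.

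Promoter windows from 250 bases before to 50 after a start site were in RefSeq's table (GRCm38.p6) for 4 of the 9 genes: Grhl1, Grhl3, Prdm1 and Tfap2a. Those of Prdm1, Grhl1 and Grhl3 are shown because these genes had the higher ratios among the 4; of the 6 windows, a second one of Grhl1 and both of Tfap2a are not printed. The sites searched on both strands, which do not contain one another, were AACCGGTT for GRHL, GCCNNNGGC for AP-2, CCGTTA for OVOL1 and GAAAGT for BLIMP1. Capitals mark a match.
Prdm1, chr10:44458699-44458998, minus strand: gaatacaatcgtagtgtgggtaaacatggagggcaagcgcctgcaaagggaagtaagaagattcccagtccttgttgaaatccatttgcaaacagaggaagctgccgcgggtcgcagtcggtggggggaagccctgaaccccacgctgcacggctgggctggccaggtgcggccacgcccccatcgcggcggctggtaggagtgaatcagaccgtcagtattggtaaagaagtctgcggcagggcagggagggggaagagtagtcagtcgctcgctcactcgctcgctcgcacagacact
Grhl1, chr12:24572037-24572336, plus strand: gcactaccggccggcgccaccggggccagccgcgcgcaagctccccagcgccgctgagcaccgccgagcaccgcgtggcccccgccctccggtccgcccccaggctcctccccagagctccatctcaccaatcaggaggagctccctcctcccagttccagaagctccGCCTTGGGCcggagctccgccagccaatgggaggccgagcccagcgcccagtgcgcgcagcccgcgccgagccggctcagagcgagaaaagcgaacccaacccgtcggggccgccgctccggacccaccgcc
Grhl3, chr4:135573583-135573882, minus strand: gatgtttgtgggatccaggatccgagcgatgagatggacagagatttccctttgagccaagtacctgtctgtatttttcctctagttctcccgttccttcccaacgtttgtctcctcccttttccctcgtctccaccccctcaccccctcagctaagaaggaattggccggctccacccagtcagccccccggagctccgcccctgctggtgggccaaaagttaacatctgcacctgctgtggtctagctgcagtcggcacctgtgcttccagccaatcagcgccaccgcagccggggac
The only match in the 6 windows was an AP-2 sequence in that of Grhl1, beginning 82 bases before the start site. Of all 32851 windows of this length in the table, 16.6% held the AP-2 letters, 14.3% the BLIMP1, 2.76% the OVOL1 and 0.146% the GRHL letters. The windows of Prdm1 and Grhl3 hold none of these letters, which says nothing of the factors themselves.

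Around the 9 genes, some other transcription factors of the epidermis were called, in both directions. The tested partners of p63, ZNF750 and the AP-2 proteins stayed within 2-fold. Of 28 other epidermal transcription factors, 24 had at least 20 counts, 3 were called higher and 1 lower (median -0.05). Of these 24, 11 had a ratio above 1. Over all protein-coding genes tested, 4.61% were called higher and 6.38% lower, 11.0% in all. Maf, which promotes differentiation in human epidermis, had 1008 counts in the shcircSmad5 library and 378 in the empty vector library, 2.61-fold higher (2.32 to 2.95). Cebpa, a factor that takes mouse basal cells out of the cell cycle, had 543 counts in shcircSmad5 cells and 161 in empty vector cells, 3.30-fold higher (2.77 to 3.96). Ehf, an epithelial ETS factor, had 275 counts in shcircSmad5 cells and 65 in empty vector cells, 4.14-fold higher (3.15 to 5.52). Barx2, a homeobox gene of the hair follicle, had 23 counts in shcircSmad5 cells and 260 in empty vector cells, 11.5-fold lower (7.53 to 18.5). Klf4, a partner and target of ZNF750 in human keratinocytes, had 7102 counts in shcircSmad5 cells and 12455 in empty vector cells with a log2 ratio of -0.84, and did not pass the rule.

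Among the paralogs, Trp73, the sister gene of Trp63, had 197 counts in the shcircSmad5 library and 587 in the empty vector library, 3.04-fold lower (2.58 to 3.59). Tfcp2l1, a distant relative of the grainyhead-like genes, had 644 counts in shcircSmad5 cells and 1834 in empty vector cells, 2.91-fold lower (2.66 to 3.19). Of 10 paralogs listed, 7 were in the table and 6 had enough counts; 2 were lower, none was higher, and the median was -0.17. Trp53 had 7088 counts in shcircSmad5 cells and 7760 in empty vector cells, a log2 ratio of -0.16. Of 25 partners and regulators, 24 were tested and 0 were called (median 0.02). Among the most abundant of them, the histone methyltransferase genes Kmt2d and Kmt5a had log2 ratios of -0.08 and -0.73, and the chromatin remodeller gene Smarca4 0.08.

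The genes that these factors are known to control were mostly not called, as were most protein-coding genes tested, of which 11.0% were called in either direction. That share stands beside each list below as well, so few calls do not set these targets apart. Among differentiation genes, more were called lower than higher. Of 26 p63 target genes, 25 were tested and 0 were called, with a median of 0.09. The log2 ratio was 0.09 for Krt5, 0.45 for Krt14 and 0.09 for the basement membrane collagen gene Col17a1. Of 21 GRHL target genes, which include Ovol1 and Ovol2, 19 were tested, and Dsg1a, a desmosomal cadherin gene, was the only one called (median -0.12). The lists share genes. Of those in the table, 14 of 25 p63 targets, 8 of 20 GRHL targets and all 10 keratinocyte markers are on another list too. Counts and medians of different lists are therefore not independent. Dsg1a had 347 counts in the shcircSmad5 library and 846 in the empty vector library, 2.49-fold lower (2.19 to 2.83). The junction genes Cldn4 and Cdh1 had log2 ratios of -0.40 and -0.18.

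Of 28 genes on the list of ZNF750 partners and differentiation genes, which holds Grhl3 and Prdm1 themselves, 18 were tested. Prdm1 was the only one higher, 4 were lower, Dsg1a again among them, and the median was -0.19. The shares over all protein-coding genes tested were 4.61% higher and 6.38% lower. The cornified envelope gene Sprr1a had 324 counts in the shcircSmad5 library and 849 in the empty vector library, 2.68-fold lower (2.35 to 3.05). Krtdap, a secreted protein gene of differentiating keratinocytes, had 149 counts in shcircSmad5 cells and 466 in empty vector cells, 3.19-fold lower (2.65 to 3.87). Tgm5, a transglutaminase gene, had 3 counts in shcircSmad5 cells and 29 in empty vector cells, a ratio of 9.87-fold lower with a wide interval (3.06 to 50.6). The suprabasal keratin gene Krt1 was at 0 in both libraries, and Krt10 had 61 counts in the shcircSmad5 library and 52 in the empty vector library. Other genes of the list were abundant and had ratios above 1 without passing the rule. Spink5, a protease inhibitor gene of the upper epidermis, had 27699 counts in shcircSmad5 cells and 20852 in empty vector cells, a log2 ratio of 0.38. The periplakin gene Ppl had 20730 counts in shcircSmad5 cells and 14030 in empty vector cells, a log2 ratio of 0.53. Cdsn, Tgm1 and Evpl had log2 ratios of 0.53, 0.38 and 0.15. In all, 8 of the 18 tested genes had a ratio above 1.

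Of 12 AP-2 target genes 10 were tested, and Cebpa, counted above among the other epidermal factors, was the only one called (median -0.04). Of 10 BLIMP1 target genes 6 were tested and 0 were called (median -0.07); Myc, which BLIMP1 represses in B cells and the sebaceous gland, had 8216 counts in the shcircSmad5 library and 7502 in the empty vector library. Nfat5 and Cdkn1a, the other abundant genes of that list, had log2 ratios of -0.05 and -0.09. Of 10 mesenchymal genes that GRHL2 and OVOL proteins oppose, 5 were tested, 3 were lower and none was higher (median -1.82). Fn1 had 71 counts in shcircSmad5 cells and 641 in empty vector cells, 9.22-fold lower (7.21 to 12.0), Prrx1 had 64 in shcircSmad5 cells and 243 in empty vector cells, 3.88-fold lower (2.93 to 5.19), and Twist2 had 15 in shcircSmad5 cells and 52 in empty vector cells, 3.54-fold lower (1.96 to 6.77). Zeb1, the chief repressor gene of the epithelial state, was at 0 in both libraries, and Snai2 had 2431 counts in the shcircSmad5 library and 4025 in the empty vector library. Cdh2, the N-cadherin gene, had 1862 counts in shcircSmad5 cells and 1512 in empty vector cells, a log2 ratio of 0.27 (0.17 to 0.37), and was the only tested gene of the list with a ratio above 1.

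**Figure D5:**
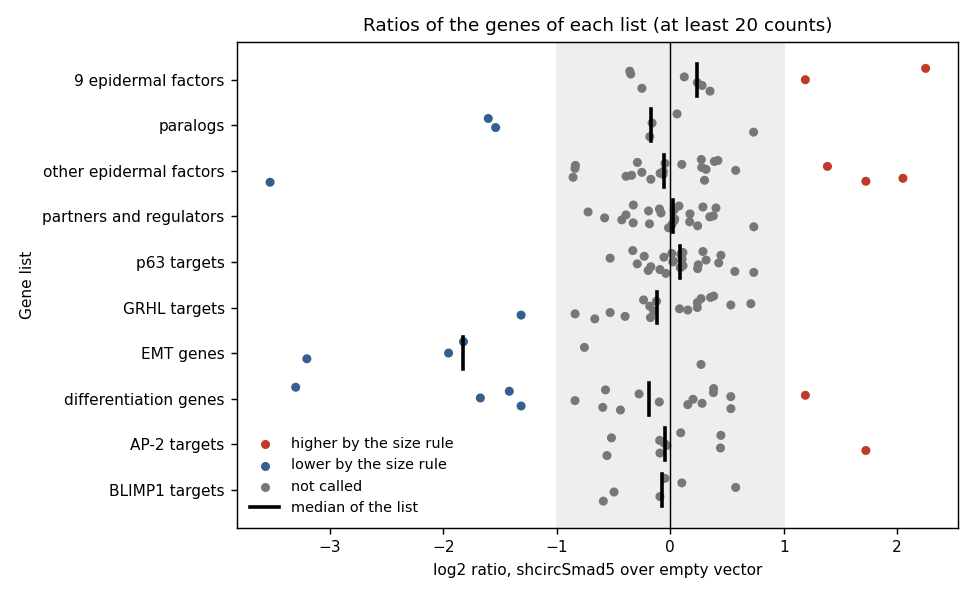
Log2 ratio, shcircSmad5 over empty vector, of every gene with at least 20 counts on each list, 1 row per list, with called genes in red (higher) or blue (lower), other genes in grey, the list's median as a black bar and ratios under 2-fold as a grey band. The row of the 9 factors has 2 red points and no blue one, and the rows of p63 targets and of partners and regulators have grey points alone.

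Markers of fibroblasts, endothelium and blood had few counts, while Fasn and Plin2 of the sebocyte list and a few markers of melanocytes and Merkel cells had more. The part of such cells in the results above was not tested. Of 7 fibroblast markers all were in the table, with 81 counts in sum in the shcircSmad5 library and 213 in the empty vector library. The 2 tested were both lower, and 1 of them, Twist2, is also on the mesenchymal list. The defining collagen gene Col1a1 was at 0 in both libraries. Of 4 endothelial markers in the table, 2 were tested and lower, with sums of 31 counts in shcircSmad5 cells and 119 in empty vector cells, and Cdh5 was at 0 in both. Of the 7 blood markers, Csf1r was the only one tested, lower with 8 counts in shcircSmad5 cells and 36 in empty vector cells, and Lyz2 was at 0 in both. Of 2 Merkel cell markers in the table, Isl1 was lower, with 109 counts in shcircSmad5 cells and 442 in empty vector cells. Of the 3 melanocyte and neural crest markers, 2 were tested and 0 were called. Mitf, at a log2 ratio of -0.99 (-1.16 to -0.82), was just under the 2-fold limit. Of 5 sebocyte markers in the table, 4 were tested and 0 were called (median -0.21). Fasn, the fatty acid synthase gene, had 40675 counts in shcircSmad5 cells and 42506 in empty vector cells, and Plin2, a lipid droplet gene, had 3430 counts in shcircSmad5 cells and 4197 in empty vector cells. Only these 2 sebocyte markers reached 1 FPKM in either library, and Scd3 had 52 counts in shcircSmad5 cells and 40 in empty vector cells.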

How the data were processed

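Total RNA was depleted of ribosomal RNA and made into directional libraries, per the labels' protocols. The submitters' processing notes list HISAT2, HTSeq 0.13.5, GRCm38 and GRCh38, without roles; the annotation, the strand setting and other settings are not given in the sources used. The authors deposited raw counts and FPKM per gene and library, per the file headers. The deposited FPKM imply, for all 9 genes, the summed exon length of GENCODE M21 (within a relative 1e-06), whose coordinates were used; of 22383 gene IDs, 64 had no entry. Of the value columns, 0 were unmatched.

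Counts were scaled by TMM (edgeR 4.0.16, R 4.3.3). Ratios, Clopper-Pearson 95% intervals (scipy 1.17.1) and the size rule are as given above. In the ratio of any gene, a count of 0 in 1 library was read as 3. No tested gene of the lists had such a count. Without molecular identifiers, reads are not independent molecules, and intervals cover counting error only. No test was possible with 1 library a group. The rule was tested on simulated data that held counting error alone, so that test says nothing of the spread between cultures. Alternatives were other scalings (DESeq2 1.42.0 among them), FPKM, count minimums, fold limits, protein-coding genes alone and centring by chromosome. The 9 genes and the 17 gene lists were chosen with earlier results of these data known. From each list were named the called genes, at most 6 by counts, and the most abundant up to 3; further genes were named after their values were seen, among them Klf4, Krt1, Krt10, Zeb1, Snai2, Cdh2, Tbx1, Cdsn, Tgm1, Evpl, Lhx2, Cd34 and the zero or low markers.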

Additional observations from a re-analysis of the deposited data

How the results depend on the processing

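Over 13 alternatives, each of the 9 genes kept the sign of its ratio. Count minimums and fold limits leave a ratio as it is, and the scaling shifts were smaller than the smallest ratio, 0.12 for Tfap2a. A pseudocount added to both FPKM shrinks a ratio but cannot reverse it. Under these the sign could not change, so keeping it there adds no support. Zfp750 was called higher in every alternative, with log2 ratios of 2.14 to 2.33, and none of the 9 genes was called lower in any. At 4.76-fold, Zfp750 lay far above even the fold limit of 3. The lowest ratio, that of Trp63 at -0.36, was short of the 1.5-fold limit. The shifts were too small to change these calls, so their staying the same adds no support. Prdm1 lay between 0.92 and 1.27. With FPKM and a pseudocount of 1, which pulls low levels together, Prdm1 had a log2 ratio of 0.92 and was no longer called, so 1 gene was higher. With a fold limit of 3, Prdm1, at 1.19, was below the limit by construction and again 1 gene was higher. Scaling moved all ratios together by at most 0.08 on the log2 scale. With ratios taken against the median of the gene's chromosome, Trp63 was at -0.46, Grhl2 at -0.45, Grhl3 at 0.48, Tfap2a at 0.33 and Ovol1 at 0.10, all still within 2-fold. Among the list genes outside the 9, 3 were higher and 16 lower. With a minimum of 100 counts, 3 were higher and 11 lower. The lower genes this left out included Tgm5, Twist2, Csf1r and Kdr, which reached the main count minimum only in the empty vector library. With a fold limit of 1.5, 7 were higher and 29 lower, by construction of a wider limit. The medians of the other epidermal factors (0.01) and AP-2 targets (0.02) turned positive with total counts, and those of partners (-0.06) and keratinocyte markers (-0.06) turned negative with chromosomes centred, so these 4 medians have no clear direction. Those of GRHL targets (-0.01) and BLIMP1 targets (-0.01) came close to 0 with chromosomes centred, so their direction is not clear either. List medians were not computed under every scaling. No paired analysis was possible because each group has 1 library. Leaving out a library leaves no comparison and was not run. The depth makes the counting error of the 9 genes small, and the unknown spread between cultures is the limit on every ratio.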
